A study of Mus musculus with 12 samples.

Results

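The CREB factors, the CRTC coactivators and the SIK kinases are the genes by which a rise in cAMP reaches transcription and is then held in check. The 9 genes Creb1, Atf1, Crem, Crtc1, Crtc2, Crtc3, Sik1, Sik2 and Sik3 were taken by symbol from a table of 45777 genes. All 9 were found, and all 9 passed the filter on low counts that left 15932 genes for testing. RNA had been sequenced from mpkCCDc11 cells, a mouse epithelial line of the kidney cortical collecting duct, in a study of how TAZ acts on aquaporin-2, the water channel of these cells. Cells received TAZ siRNA, labelled as a knockdown, or control siRNA, labelled WT, and then basolateral dDAVP (1-deamino-8-D-arginine vasopressin, 1e-09 M) or vehicle. The groups were TAZ siRNA with dDAVP, TAZ siRNA with vehicle, control siRNA with dDAVP and control siRNA with vehicle, with 3 libraries each. All cells were of passage 11 to 16 and stood 3 days on permeable filters and a further 24 h without serum and hormones. The labels list exposures of 15 min, 30 min and 24 h and do not say which these libraries had. Nor do they say that the 3 libraries of a group are separate cultures. The p-values therefore rest on library-to-library spread alone, and that spread may be technical.

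As background, vasopressin acts on collecting duct cells through the V2 receptor, which raises cAMP and activates protein kinase A. Protein kinase A phosphorylates CREB, a factor bound to cAMP response elements, and also phosphorylates the SIKs, which keeps them from acting on the CRTCs. CRTCs that SIKs have phosphorylated are held in the cytoplasm by 14-3-3 proteins. Once the phosphates are removed by calcineurin and other phosphatases, CRTCs enter the nucleus and bind CREB. Sik1 and the short Crem products known as ICER are themselves made in response to cAMP in many cells and act against the pathway.

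In the deposited mm10 coordinates, Creb1 lies at chr1:64532794-64604548, Atf1 at chr15:100227859-100261248 and Crem at chr18:3266354-3337773. Crtc1 lies at chr8:70382352-70439702, Crtc2 at chr3:90253858-90264125 and Crtc3 at chr7:80586627-80688948. Sik1 lies at chr17:31844248-31855804, Sik2 at chr9:50889644-51009132 and Sik3 at chr9:46012820-46224194, so Sik2 and Sik3 share a chromosome.

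The 12 libraries held 45095331 to 61725339 counts. Wwtr1, which encodes TAZ, was lower in all 6 TAZ siRNA libraries than in any control siRNA library, at 0.686 of control with dDAVP and 0.645 with vehicle, so the knockdown was partial. Aqp2 averaged 11.0 ± 2.4 CPM (the count scaled to the library size) with TAZ siRNA and dDAVP, and it was listed at 0 in 2 of the 3 libraries with TAZ siRNA and vehicle. With control siRNA it averaged 34.7 ± 8.8 CPM with dDAVP and 0.340 ± 0.003 CPM with vehicle (SD, n = 3 each). Of 14 epithelial and principal cell markers, 10 to 13 exceeded 1 CPM by group, and 3 endothelial markers (Kdr at 0 throughout) summed to at most 0.275 CPM in any library. The 4 immune markers summed to 1.02 to 1.08 CPM with dDAVP and 0.920 to 1.37 CPM with vehicle in TAZ siRNA cells, and to 0.692 to 0.841 CPM and 0.975 to 1.32 CPM in control siRNA cells, with Cd3e at 0 and Cd74 at group means of 0.650 to 1.04 CPM. With TAZ siRNA the summed epithelial markers were 4684 to 4881 CPM with dDAVP and 4344 to 4523 CPM with vehicle, and with control siRNA 4872 to 5089 CPM and 4271 to 4440 CPM. Within that sum Krt8 averaged 853 and 695 CPM with TAZ siRNA, and 943 and 641 CPM with control siRNA. Krt18 averaged 915 and 714 CPM, and 1053 and 663 CPM. Scnn1a, Tfcp2l1 and Epcam had lower group means with dDAVP than with vehicle in both siRNAs. Aqp3, Aqp4 and Scnn1b had group means of at most 1.02 CPM. The summed markers of intercalated cells, with Foxi1, Atp6v1g3 and Slc26a4 at 0, were 187 to 204 CPM and 145 to 162 CPM with TAZ siRNA, and 217 to 229 CPM and 162 to 174 CPM with control siRNA. That sum came almost wholly from Atp6v1b1, Car2 and Aqp6, with group means of 85.0 to 100.3, 56.9 to 86.9 and 10.95 to 36.94 CPM. The summed markers of other nephron segments, with Slc12a1 and Nphs1 at 0, were 205 to 216 CPM and 250 to 263 CPM with TAZ siRNA, and 208 to 225 CPM and 272 to 284 CPM with control siRNA. They came almost wholly from Lrp2 and Podxl, with group means of 128.3 to 183.3 and 56.8 to 110.6 CPM. Fibroblast markers summed to at most 7.16 CPM in any library. The part of these shifts in the changes of the 9 genes was not tested. In RNA from whole cultures, fewer cells of a type and less RNA per cell cannot be told apart.

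Levels were compared between genes in FPKM, the authors' deposited value per length and depth, as mean ± SD of 3 libraries. Atf1, a close relative of CREB, stood highest in all 4 groups, at 31.1 ± 1.4 FPKM with TAZ siRNA and dDAVP and 30.9 ± 0.8 FPKM with control siRNA and vehicle. Crtc2, the CRTC best known from gluconeogenesis in liver, came next, at 28.5 ± 0.9 and 27.6 ± 1.1 FPKM in those 2 groups. Crtc3 and Crem stood lowest, with Crtc3 at 3.60 ± 0.18 and 3.78 ± 0.02 FPKM and Crem at 2.45 ± 0.07 and 1.45 ± 0.22 FPKM. All neighbours in the order had libraries that did not overlap, except Sik2 and Sik1 with TAZ siRNA and vehicle, and Sik1 and Crtc1 with control siRNA and dDAVP. Sik1 changed its place: among the 9 genes it had rank 4 with TAZ siRNA and dDAVP (18.9 ± 1.1 FPKM) and rank 7 with TAZ siRNA and vehicle (10.3 ± 0.6 FPKM). With control siRNA it had rank 3 with dDAVP (21.1 ± 0.8 FPKM) and rank 7 with vehicle (9.95 ± 0.26 FPKM).

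The make-up of each family followed from these levels. Sik1 gave 41.0% ± 0.8 of the summed SIK FPKM with dDAVP and 30.4% ± 1.0 with vehicle in TAZ siRNA cells. In control siRNA cells it gave 43.7% ± 1.0 with dDAVP and 29.4% ± 0.6 with vehicle (SD, n = 3 each). The SIK sum was 46.0 ± 1.8 FPKM with dDAVP and 33.9 ± 0.8 FPKM with vehicle in TAZ siRNA cells, and 48.3 ± 0.9 and 33.8 ± 0.7 FPKM in control siRNA cells. Sik3, the largest contributor with vehicle at 39.2% ± 0.3 and 38.8% ± 0.5 for TAZ and control siRNA, was second to Sik1 with dDAVP at 33.3% ± 0.7 and 30.3% ± 0.5. The CREB sum moved little, between group means of 49.9 and 51.7 FPKM, and Atf1 held 59.6% to 62.8% of it. Crem held 4.90% ± 0.07 of that sum with dDAVP and 2.96% ± 0.21 with vehicle in TAZ siRNA cells, and 5.16% ± 0.71 and 2.82% ± 0.46 in control siRNA cells. Crtc1 held 41.6% ± 0.3 of the CRTC sum with dDAVP and 37.4% ± 0.6 with vehicle in TAZ siRNA cells, against 41.3% ± 0.9 and 36.4% ± 0.5 in control siRNA cells.

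**Figure D1:**
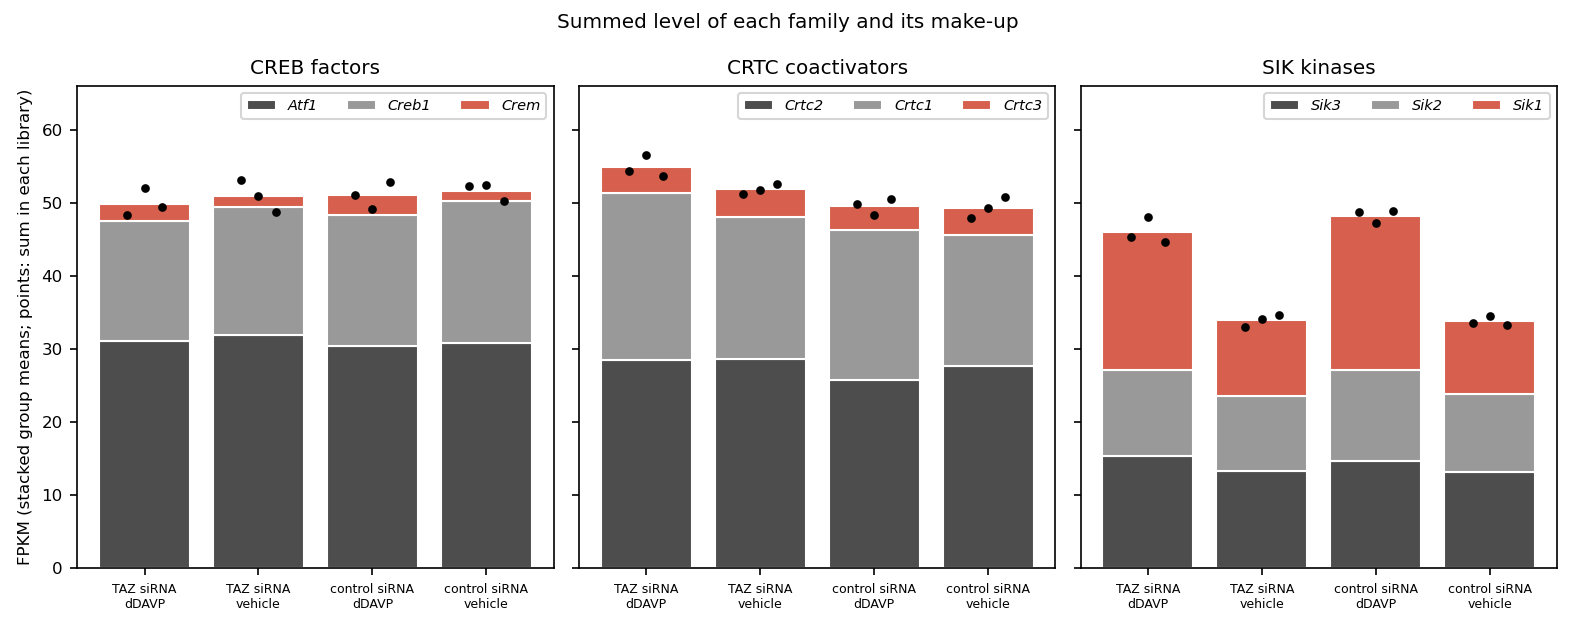
Summed FPKM of the 3 CREB factors, 3 CRTCs and 3 SIKs in each group, with bars stacked from the group means of the single genes and points for the sum in each of the 3 libraries. The CREB and CRTC bars stay between 49.4 and 54.9 FPKM, while the SIK bars stand at 46.0 and 48.3 FPKM with dDAVP and at 33.9 and 33.8 FPKM with vehicle, mostly through Sik1.

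The first comparison asked what dDAVP did to the machinery itself. In both siRNA conditions all 3 SIKs, Crtc1 and Crem were higher with dDAVP, while Creb1, Atf1, Crtc2 and Crtc3 passed the test in neither. With TAZ siRNA 5 of 9 genes were called higher and 0 lower, where 6.38% of all genes tested were called higher and 4.41% lower. With control siRNA the same 5 genes were called higher and 0 lower, against 9.72% and 9.48% of all genes. In either direction 10.8% of all genes were called with TAZ siRNA and 19.2% with control siRNA. The 9 genes were chosen with earlier results of these data known, so their counts beside these shares are a description only. The median change of the 9 genes was 0.21 with TAZ siRNA and 0.16 with control siRNA on the log2 scale, against -0.00085 and -0.0012 over all genes. The libraries of all 5 separated upward without overlap in both, as did those of 13.7% of all genes with TAZ siRNA and 17.3% with control siRNA. Calls needed an adjusted p under 0.05 in edgeR's quasi-likelihood test, with Benjamini-Hochberg adjustment over all 15932 genes. At an unadjusted p under 0.05, 0 of the 9 genes were lower with TAZ siRNA and 3 with control siRNA (Creb1, Crtc2 and Crtc3), and DESeq2 and limma-voom also called 0 lower.

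Sik1, the SIK whose transcription is cAMP-inducible in other tissues, changed most of the 9. Its level was 90.8, 98.2 and 90.2 CPM with dDAVP and 47.5, 50.0 and 53.3 CPM with vehicle in the TAZ siRNA libraries. In the control siRNA libraries it was 103.6, 100.2 and 107.6 CPM with dDAVP and 47.5, 49.9 and 48.8 CPM with vehicle. Every dDAVP library stood far above every vehicle library, and within dDAVP all 3 TAZ siRNA libraries lay under the 3 control siRNA libraries. The change was 0.89 ± 0.05 on the log2 scale with TAZ siRNA (1.85-fold, adjusted p = 4.66e-10) and 1.09 ± 0.05 with control siRNA (2.13-fold, adjusted p = 1.66e-11). Its single transcript in the table, NM_010831, holds 100% of its counts, so the transcript test uses the same data again. It passed in both, with adjusted p-values of 0.000517 and 8.12e-05.

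Sik2, a SIK abundant in fat and many other tissues, rose less. It stood at 93.0, 97.1 and 91.0 CPM with dDAVP and at 79.9, 82.1 and 81.5 CPM with vehicle in TAZ siRNA cells. Under control siRNA it stood at 101.8, 96.7 and 95.4 CPM with dDAVP and at 85.2, 86.6 and 79.4 CPM with vehicle. The groups did not overlap within either siRNA, and the changes were 0.21 ± 0.04 (adjusted p = 0.00161) and 0.23 ± 0.04 (adjusted p = 0.000409). Sik3, a broadly expressed SIK, was at 104.4, 105.8 and 104.9 CPM with dDAVP and at 88.0, 91.2 and 91.2 CPM with vehicle in TAZ siRNA cells. Its values under control siRNA were 99.0, 99.6 and 101.6 CPM with dDAVP and 90.0, 90.1 and 87.9 CPM with vehicle. Here too no dDAVP library overlapped a vehicle library of the same siRNA, with changes of 0.22 ± 0.03 (adjusted p = 6.64e-05) and 0.16 ± 0.03 (adjusted p = 0.000769). The rises of Sik2 and Sik3 were 1.12-fold to 1.17-fold, smaller than that of Sik1 in either siRNA. In the edgeR transcript test, NM_027498 of Sik3 passed with TAZ siRNA (adjusted p = 0.0267) but not with control siRNA (adjusted p = 0.0967). No transcript of Sik2 or Crtc1 passed in either.

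The promoter sequences of Sik2, Sik3 and Crtc1 are shown because these 3 genes rose together by a similar amount. RefSeq promoters of GRCm38.p6, each 250 bases before and 50 after the start that the RefSeq table gives, were matched by symbol for 6 of the 9 genes: Creb1, Atf1, Crtc1, Crtc3, Sik2 and Sik3. They were searched on both strands for the cAMP response element TGACGTCA, its core TGACGT or ACGTCA, and its short form TGACG or CGTCA, which every core contains. Capitals mark the short form, and each sequence is written 5′ to 3′ on the strand of its gene.
Sik2 (chr9:51009024-51009323, minus strand): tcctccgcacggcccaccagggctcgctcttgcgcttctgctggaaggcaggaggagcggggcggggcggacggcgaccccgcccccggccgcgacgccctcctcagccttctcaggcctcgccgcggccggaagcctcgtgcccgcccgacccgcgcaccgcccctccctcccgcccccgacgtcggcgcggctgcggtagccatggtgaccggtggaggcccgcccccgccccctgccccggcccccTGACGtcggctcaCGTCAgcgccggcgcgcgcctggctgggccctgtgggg
Sik3 (chr9:46012570-46012869, plus strand): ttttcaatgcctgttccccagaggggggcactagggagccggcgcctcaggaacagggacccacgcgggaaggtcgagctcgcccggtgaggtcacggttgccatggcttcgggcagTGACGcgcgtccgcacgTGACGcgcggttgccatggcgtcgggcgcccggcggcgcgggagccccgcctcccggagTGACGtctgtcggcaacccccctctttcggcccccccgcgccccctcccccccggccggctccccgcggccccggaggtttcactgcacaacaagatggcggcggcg
Crtc1 (chr8:70439524-70439823, minus strand): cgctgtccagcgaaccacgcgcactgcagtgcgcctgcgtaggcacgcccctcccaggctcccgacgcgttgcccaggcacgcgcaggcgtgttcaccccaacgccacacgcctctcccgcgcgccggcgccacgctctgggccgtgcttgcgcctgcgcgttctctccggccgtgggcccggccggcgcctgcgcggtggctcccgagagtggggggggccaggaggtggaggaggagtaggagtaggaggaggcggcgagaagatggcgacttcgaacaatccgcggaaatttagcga
None of the 6 promoters held the full element, which is in 1.79% of 32851 promoters of the same length. No promoter of Sik1, Crem or Crtc2 was searched, so this does not cover Sik1 and Crem, which rose most with dDAVP. Sik2 held 2 short forms, both within cores, whose first bases lie at -1 and 13 counted from the start in the RefSeq table (51009073). That is the start of NM_178710, which held 1.36% of Sik2 transcript counts, and 4 transcripts with 98.6% of them start 59 bases further upstream, at the end of the gene printed above. For Sik3 the start is that of NM_027498 (99.3% of Sik3 transcript counts), and for Crtc1 it is that of NM_001004062 (84.1%), 129 bases inside the gene. Sik3 held 3 short forms, at -133, -116 and -57, the last within a core. Atf1, which was not called, held 1 short form at -90, and Crtc1, Creb1 and Crtc3 held none. Cores were in 7.51% and short forms in 20.8% of all promoters. A match is a run of letters and not a measured binding site.

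Of the CRTCs, only Crtc1 was called for dDAVP. Crtc1, the coactivator best known from neurons, had 139.3, 140.9 and 138.5 CPM with dDAVP and 113.6, 117.9 and 120.6 CPM with vehicle in TAZ siRNA cells. Under control siRNA the values were 127.8, 122.8 and 124.3 CPM with dDAVP and 108.2, 108.4 and 111.1 CPM with vehicle. The dDAVP libraries were higher without overlap in both, by 0.25 ± 0.03 (adjusted p = 2.98e-05) and 0.19 ± 0.03 (adjusted p = 0.000251). The 4 groups formed steps, since TAZ siRNA libraries also stood above control siRNA libraries in the same treatment. Crtc2 was at 91.0, 93.9 and 91.3 CPM with dDAVP and 90.88, 89.34 and 91.99 CPM with vehicle in TAZ siRNA cells, and at 82.2, 79.9 and 85.1 CPM and 83.7, 89.3 and 87.5 CPM in control siRNA cells. Its libraries overlapped between treatments, with changes of 0.02 (95% interval -0.05 to 0.09) and -0.08 (-0.15 to -0.00). Crtc3, the least abundant CRTC here, had 20.55, 20.51 and 19.18 CPM with dDAVP and 20.59, 21.62 and 21.52 CPM with vehicle in TAZ siRNA cells. Under control siRNA it had 17.35, 20.53 and 18.26 CPM with dDAVP and 20.97 to 21.01 CPM with vehicle. Every dDAVP library of Crtc3 was lower than the vehicle libraries of its siRNA, but the changes did not pass the test, at -0.08 (-0.21 to 0.05) with TAZ siRNA and -0.17 (-0.29 to -0.04, adjusted p = 0.0654) with control siRNA. Libraries separated downward in this way for 12.6% and 17.9% of all genes tested. Without control siRNA dDAVP replicate 2, its highest dDAVP library there, the change with control siRNA was -0.24 and passed the test (adjusted p = 0.00893).

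**Figure D2:**
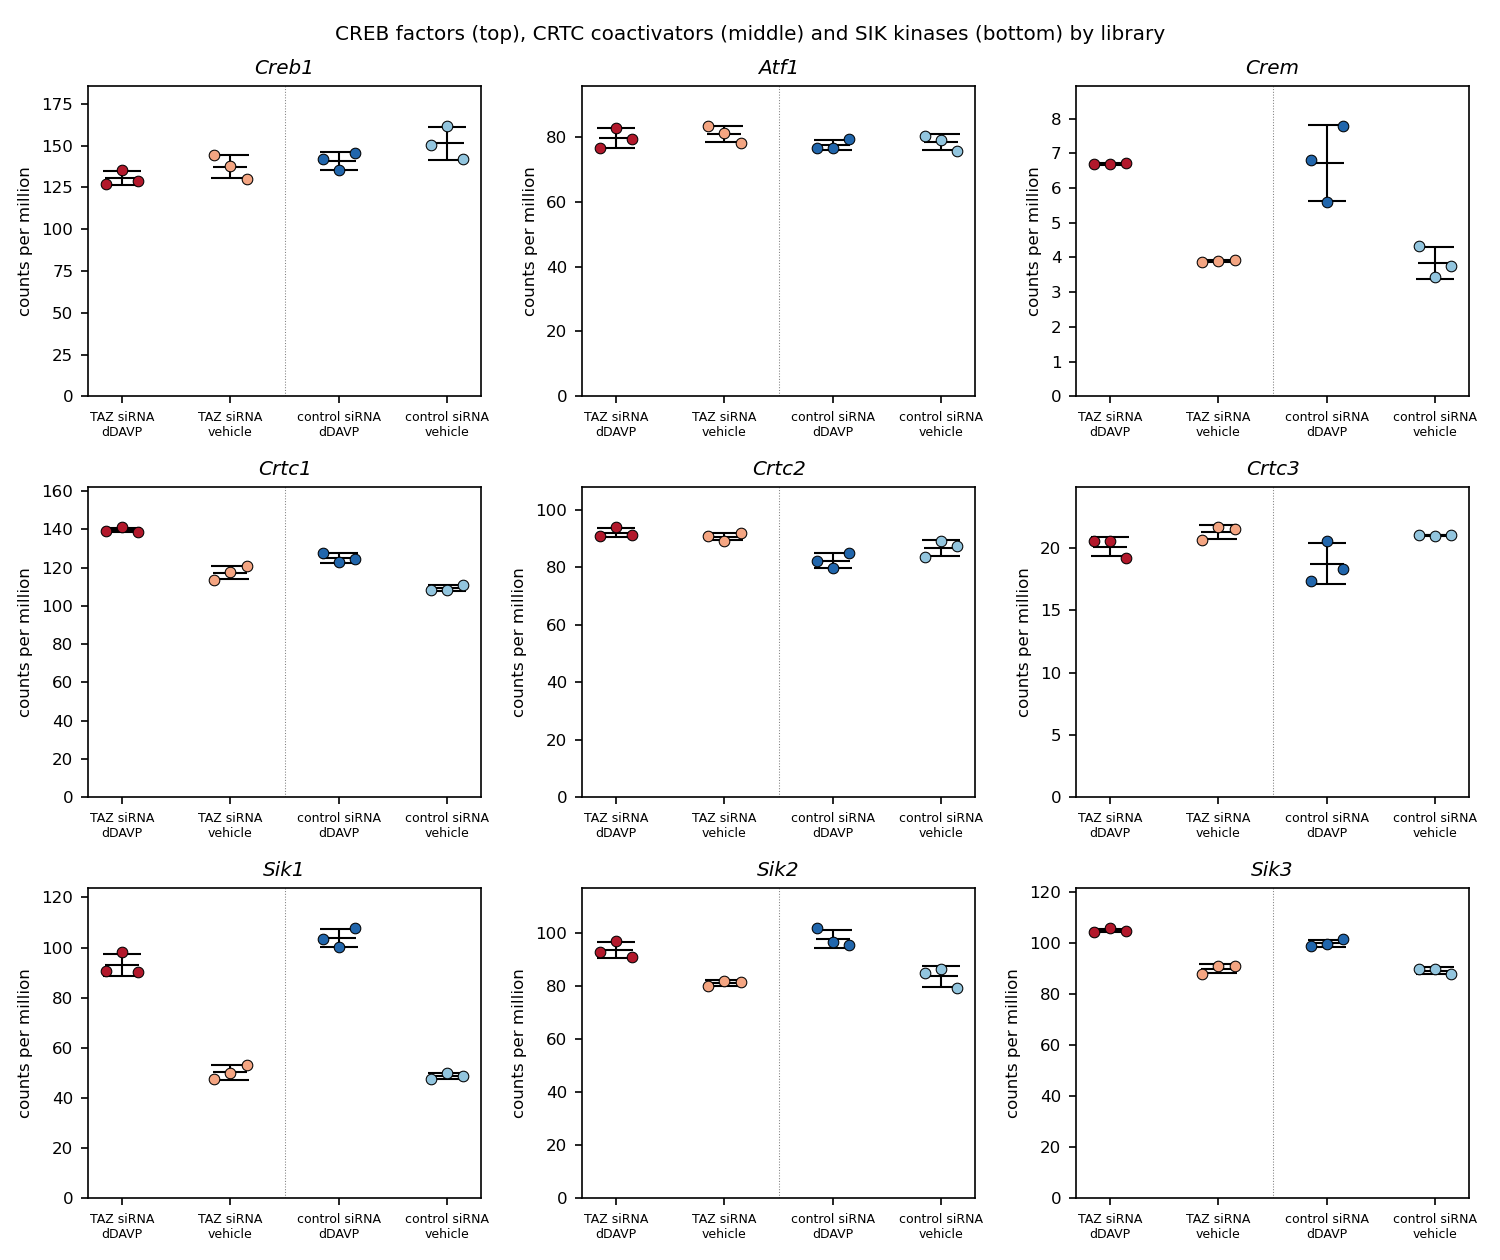
Level of each of the 9 genes in CPM in every library, with 1 panel per gene, 3 points per group and bars for mean ± SD. Sik1 and Crem show the clearest gap between dDAVP and vehicle, Crtc1, Sik2 and Sik3 a small gap with no overlap within a siRNA, and Creb1, Atf1 and Crtc2 overlapping points.

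Among the CREB factors only Crem moved with dDAVP. Crem encodes activators and repressors from many transcripts, and it had 6.68, 6.69 and 6.73 CPM with dDAVP and 3.86, 3.91 and 3.92 CPM with vehicle in TAZ siRNA cells. Its control siRNA libraries had 6.81, 5.59 and 7.77 CPM with dDAVP and 4.34, 3.44 and 3.76 CPM with vehicle. The lowest dDAVP library, at 5.59 CPM, was still above the highest vehicle library, at 4.34 CPM. The changes were 0.78 ± 0.12 (1.72-fold, adjusted p = 0.000161) and 0.80 ± 0.12 (1.74-fold, adjusted p = 7.87e-05). These rest on few reads, with 1018 counts summed over 3 libraries with dDAVP and 722 with vehicle for TAZ siRNA, and 1164 and 626 for control siRNA.

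Creb1, the CREB that protein kinase A phosphorylates, was not called in any comparison. Its levels were 127.0, 135.1 and 128.9 CPM with dDAVP and 144.1, 138.0 and 130.0 CPM with vehicle in TAZ siRNA cells, and 142.0, 135.2 and 145.5 CPM and 150.4, 161.4 and 142.1 CPM in control siRNA cells. The libraries of both treatments overlapped within each siRNA, and the changes were -0.08 (95% interval -0.18 to 0.02) and -0.10 (-0.20 to -0.00, adjusted p = 0.149). Without control siRNA vehicle replicate 3 the change with control siRNA was -0.15 with an adjusted p of 0.0493. Atf1 ranged from 76.7 to 82.7 CPM with dDAVP and from 78.2 to 83.2 CPM with vehicle in TAZ siRNA cells, and from 76.4 to 79.3 CPM and 75.6 to 80.4 CPM in control siRNA cells, so its groups overlapped. Its changes with dDAVP were -0.02 with TAZ siRNA (95% interval -0.10 to 0.06) and -0.02 with control siRNA (-0.10 to 0.06).

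The Crem locus on chromosome 18 (mm10, 3266354 to 3337773, minus strand) carried 62 transcripts in the table, of which 53 had a count in some library and 16 passed the filter. Grouped by annotated start, 30 transcripts began at the 5′-most start (3337419 to 3337773) and held 41.7% of all Crem counts. Another 8 began at the internal start nearest the 3′ end (3281132 to 3282171), where the ICER promoter is known to lie, and held 48.0%. The remaining 24 transcripts, from 4 starts between them, held the rest, with 7.51% at the start at 3327591. The single transcripts with most counts were NM_001311066 and XM_030250315, both from the internal start, with 15.95% and 14.45% of Crem counts.

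The internal start had 140, 105 and 141 counts with dDAVP and 94, 167 and 91 counts with vehicle in TAZ siRNA cells. In control siRNA cells it had 255, 170 and 267 counts with dDAVP and 103, 43 and 119 counts with vehicle. In CPM all control siRNA libraries with dDAVP (2.80 to 4.86) were above all those with vehicle (0.913 to 2.04), while vehicle replicate 2 of TAZ siRNA (2.72) was above 2 of the 3 dDAVP libraries (2.35, 2.23 and 3.11). The 5′-most start had 197, 132 and 161 counts with dDAVP and 143, 67 and 123 counts with vehicle in TAZ siRNA cells, and 97, 105 and 155 counts and 125, 86 and 82 counts in control siRNA cells. In CPM this start separated dDAVP (2.80 to 3.55) from vehicle (1.09 to 2.31) in TAZ siRNA cells and overlapped in control siRNA cells. How many of all starts separate in this way was not counted, so the separations of the Crem starts are a description only. As a share of Crem counts the internal start gave 38.3% ± 7.0 with dDAVP and 48.8% ± 18.0 with vehicle in TAZ siRNA cells, and 58.9% ± 7.8 and 41.0% ± 13.9 in control siRNA cells. Over both siRNAs the share differed by 3.70 percentage points between dDAVP and vehicle (two-sided exact permutation test within siRNA, 400 arrangements, p = 0.66). Within TAZ siRNA the difference was -10.5 points (exact permutation p = 0.5) and within control siRNA 18.0 points (p = 0.2), where 3 against 3 libraries cannot give a p under 0.1.

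A fit of counts summed by start over all genes, added after seeing the data, put the internal start at 0.43 ± 0.36 with TAZ siRNA (adjusted p = 0.634) and 1.33 ± 0.36 with control siRNA (adjusted p = 0.0512) on the log2 scale. The 5′-most start was at 0.84 ± 0.31 (adjusted p = 0.206) and 0.19 ± 0.31 (adjusted p = 0.804). The difference between the siRNAs in the dDAVP response of the internal start was -0.91 ± 0.51 (adjusted p = 0.794). Of the 3 Crem starts tested, 0 were called by edgeR for dDAVP, where 4.39% of all starts were with TAZ siRNA and 8.77% with control siRNA, and 2 and 1 had an unadjusted p under 0.05. No single Crem transcript was called for dDAVP among the 16 tested by edgeR, where 0.244% of all 53174 transcripts were called with TAZ siRNA and 0.512% with control siRNA. At an unadjusted p under 0.05 the counts were 0 and 1 of 16, and 13 of 16 estimates were above 0 in each. For TAZ siRNA 0 were called with dDAVP and with vehicle, where 0.0865% and 0.0188% of all transcripts were, and 2 and 0 had an unadjusted p under 0.05. For the difference of the dDAVP responses 0 were called, against 0.00376% of all, and 2 had an unadjusted p under 0.05. The share of a transcript within Crem was tested as well, and edgeR called 0 of 16 for dDAVP, where 0.167% of all transcripts were called with TAZ siRNA and 0.284% with control siRNA, and 0 and 2 had an unadjusted p under 0.05. For TAZ siRNA it called 0 of 16 with dDAVP and with vehicle (0.219% and 0.223% of all, with 2 and 1 at an unadjusted p under 0.05), and 0 for the difference of responses (0.463% of all, with 2). For the shares of the 3 starts it called 0 for dDAVP, where 0.0519% of all starts were called with TAZ siRNA and 0.195% with control siRNA, and 1 and 0 had an unadjusted p under 0.05. For TAZ siRNA it called 0 of the 3 with dDAVP and with vehicle (0.130% and 0.117% of all, with 0 and 1 at an unadjusted p under 0.05), and 0 for the difference (0.0778% of all, with 1). In data simulated for dDAVP with control siRNA, the changed transcripts were drawn over all genes from those with a mean of at least 1 CPM. They were not at the depth of the Crem transcripts. The transcript test recovered 0% of 67 with a 2-fold change and 36.4% of 66 with an 8-fold change.

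**Figure D3:**
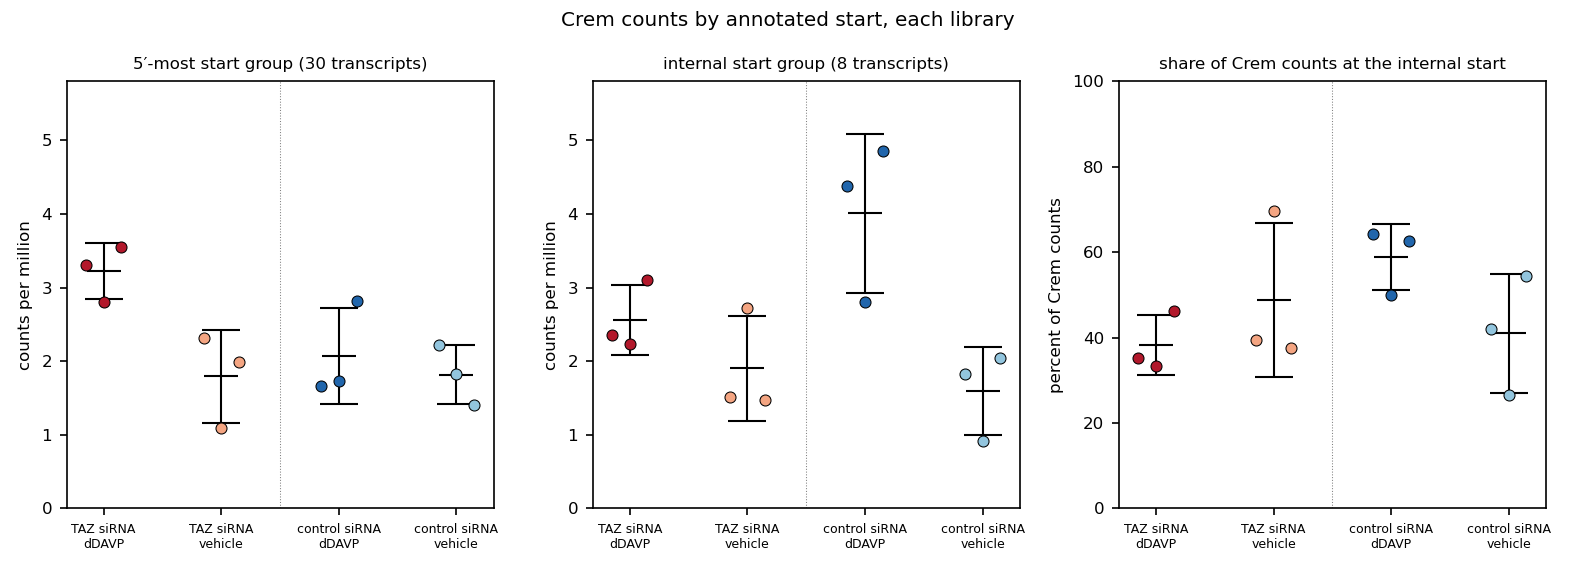
Crem CPM from the 5′-most start (left) and from the internal start (middle), and the internal start as a percent of Crem counts (right), with 3 points per group and mean ± SD. The internal start separates dDAVP from vehicle in control siRNA cells but not in TAZ siRNA cells, and its share ranges from 26.5% to 69.6% over the libraries. Of the 3 Crem starts tested, 0 were called for dDAVP in either siRNA.

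The second comparison asked what TAZ siRNA did to the 9 genes in each treatment. With dDAVP, Crtc1 and Crtc2 were higher and Sik1 was lower with TAZ siRNA than with control siRNA, so 2 of 9 genes were called higher and 1 lower, where 5.77% and 4.97% of all genes were. The libraries of these genes did not overlap, as for 15.1% of all genes upward and 13.8% downward. Crtc1 averaged 139.6 ± 1.2 CPM with TAZ siRNA and 125.0 ± 2.6 CPM with control siRNA, a change of 0.16 ± 0.03 (adjusted p = 0.00321). Crtc2 averaged 92.1 ± 1.6 CPM with TAZ siRNA and 82.4 ± 2.6 CPM with control siRNA, a change of 0.16 ± 0.03 (adjusted p = 0.00615). Sik1 averaged 93.1 ± 4.4 CPM with TAZ siRNA and 103.8 ± 3.7 CPM with control siRNA, and it fell by 0.16 on the log2 scale (SE 0.04, adjusted p = 0.0289). That call of Sik1 was lost when any of 4 of the 6 libraries was left out, namely TAZ siRNA dDAVP replicate 1 or 3 or control siRNA dDAVP replicate 1 or 3, with adjusted p-values of 0.0692 to 0.135. Nor was Sik1 called here by edgeR in the transcript test (adjusted p = 0.589) or in the fit by start (adjusted p = 0.0962). Crtc1 and Crtc2 stayed called under all 12 alternatives tried. At an unadjusted p under 0.05 in edgeR, 3 of the 9 genes were higher and 2 lower with TAZ siRNA and dDAVP. Besides the called genes these were Sik3, higher (0.07 ± 0.03, adjusted p = 0.157), and Creb1, lower (-0.11 ± 0.05, adjusted p = 0.147). The libraries of Sik3 and Creb1 did not overlap between the siRNAs with dDAVP either.

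With vehicle, edgeR called 0 of 9 genes, where 3.19% of all genes were called higher and 3.11% lower (6.30% in all), and limma-voom also called 0. At an unadjusted p under 0.05 there were 2, and DESeq2 called both. Creb1 averaged 137.4 ± 7.1 CPM with TAZ siRNA and 151.3 ± 9.7 CPM with control siRNA (-0.14 ± 0.05, adjusted p = 0.0921, and 0.0494 by DESeq2). Crtc1 averaged 117.4 ± 3.5 CPM and 109.2 ± 1.6 CPM (0.10 ± 0.03, adjusted p = 0.063, and 0.0337 by DESeq2), and its libraries did not overlap, as for 11.9% of all genes upward. Crtc2 averaged 90.7 ± 1.3 CPM and 86.8 ± 2.9 CPM, a change of 0.06 (95% interval -0.01 to 0.14, edgeR adjusted p = 0.327). The libraries of Crtc2 did not overlap either. Sik1 averaged 50.3 ± 2.9 CPM with TAZ siRNA and 48.7 ± 1.2 CPM with control siRNA, a change of 0.04 (95% interval -0.05 to 0.14). Crem showed no called change under TAZ siRNA, at -0.00 with dDAVP (95% interval -0.24 to 0.23) and 0.01 with vehicle (-0.24 to 0.27).

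The difference of the dDAVP responses, TAZ siRNA minus control siRNA, was tested for all genes, and 0.0126% of them were called higher and 0.0188% lower (0.0314% in all). Of the 9 genes 0 were called by edgeR, by DESeq2 or by limma-voom, and 1 had an unadjusted p under 0.05 by each. That gene was Sik1, with a response smaller by 0.20 ± 0.06 on the log2 scale in TAZ siRNA cells (95% interval -0.34 to -0.07, unadjusted p = 0.00582, adjusted p = 0.359). The other 8 had an unadjusted p over 0.05. The response of Crem differed by -0.02 (-0.37 to 0.33) and that of Crtc2 by 0.10 (-0.01 to 0.20), and the intervals of Crtc1, Sik2 and Sik3 lay between -0.14 and 0.15.

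**Figure D4:**
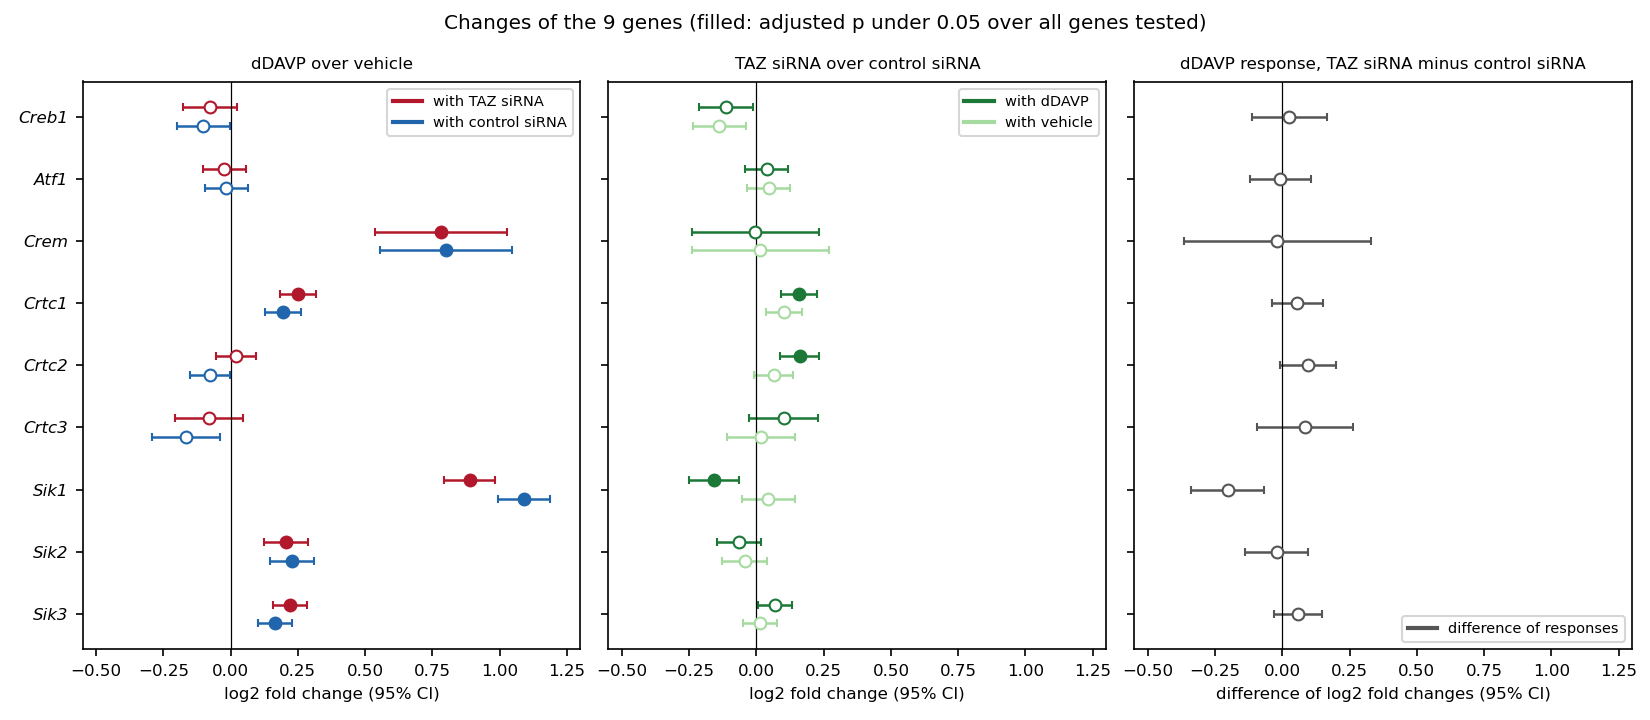
Log2 fold changes of the 9 genes with 95% confidence intervals for dDAVP over vehicle (left), TAZ siRNA over control siRNA (middle) and the difference of the dDAVP responses (right), with filled points for an adjusted p under 0.05 over all genes tested. The same 5 genes are filled for dDAVP in both siRNAs, 3 are filled for TAZ siRNA with dDAVP, and none is filled in the right panel.

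The genes whose level followed a called member most closely were found by Pearson correlation of log2 CPM over the 12 libraries, among 12573 genes with a mean of at least 1 CPM. All libraries share the same 4 groups, so the correlations mostly restate the group means, and they are given as a description. Sik1 ran closest to Nr4a1 (r = 0.995), an orphan nuclear receptor gene induced by cAMP, to Dnajb2 (0.995), a co-chaperone gene, and to Pde4d (0.994), a cAMP phosphodiesterase gene. Crem ran closest to Tmprss2, Sesn2 and Nr4a3 (0.961 each). Crtc1 was nearest to Cdc42bpb (0.982), Ripor1 (0.981) and the channel gene Trpv4 (0.976), and Sik2 to Exoc6b (0.979), Hivep2 (0.974) and Atxn1 (0.967). Sik3 was nearest to Gm40453 (0.981), Reep6 (0.976) and LOC115487832 (0.971). Crtc2, called only for TAZ siRNA with dDAVP, was nearest to Zfp219 (0.959), Dtx3 (0.949) and Nisch (0.939).

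The genes that act on, or downstream of, these 9 were read from the same fit. Of 28 cAMP and CREB target genes outside the family, 24 were tested. With TAZ siRNA 11 were higher and 2 lower with dDAVP, and with control siRNA 14 were higher and 3 lower. Of all genes 6.38% were higher and 4.41% lower with TAZ siRNA, and 9.72% and 9.48% with control siRNA. This list, like the others, was chosen with earlier results of these data known, so the counts are a description only. The median change of the targets was 0.23 with TAZ siRNA and 0.29 with control siRNA on the log2 scale, where that of all genes was -0.00 in each. The largest changes were those of the cAMP phosphodiesterase Pde4b (3.52 ± 0.09 with TAZ siRNA and 3.78 ± 0.09 with control siRNA), the nuclear receptor Nr4a3 (3.62 ± 0.32 and 3.68 ± 0.33) and Pde4d (2.21 ± 0.09 and 2.47 ± 0.09). For TAZ siRNA against control siRNA with dDAVP, 3 of the 24 targets were called, all lower, where 4.97% of all genes were lower and 5.77% higher. These were Pde4b (-0.22 ± 0.07) and the AP-1 subunits Fosl2 (-0.21 ± 0.05) and Junb (-0.20 ± 0.05). With vehicle 3 were higher, namely Dusp1 (0.37 ± 0.08), Ptgs2 (0.35 ± 0.07) and Per1 (0.17 ± 0.05), and 2 were lower, Irs2 (-0.25 ± 0.05) and Fosl2 (-0.21 ± 0.05), where 3.19% and 3.11% of all genes were. The median change of the targets was -0.09 with dDAVP and 0.08 with vehicle, against 0.00 for all genes in each.

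Of the protein kinase A genes upstream, the regulatory subunit genes Prkar2b and Prkar1a were called, while the regulatory Prkar2a and Prkar1b and the catalytic Prkaca and Prkacb were not. Prkar2b rose by 0.60 ± 0.05 with TAZ siRNA and 0.71 ± 0.05 with control siRNA, Prkar1a by 0.17 ± 0.03 and 0.23 ± 0.03, and the inhibitor gene Pkia changed by -0.52 ± 0.07 and -0.50 ± 0.08. These were 2 higher and 1 lower of 8 tested in each siRNA, where 6.38% of all genes were higher and 4.41% lower with TAZ siRNA, and 9.72% and 9.48% with control siRNA. The lists of the LKB1 complex, CRTC phosphatases, 14-3-3 proteins and AMPK-related kinases hold 5 to 9 tested genes each. Their calls for dDAVP are to be set against the same shares of all genes. In lists so small, 1 call is not read as a result about the list. Of the LKB1 complex, which activates SIKs, 1 of 5 genes was higher with TAZ siRNA and 2 of 5 with control siRNA, with Cab39l in both (0.21 ± 0.06 and 0.22 ± 0.06). Of 9 genes of the CRTC phosphatases, 1 was higher with TAZ siRNA and 3 with control siRNA, with the calcineurin subunit Ppp3cc in both (0.23 ± 0.06 and 0.26 ± 0.05). For TAZ siRNA against control siRNA with dDAVP, 3 of these 9 were lower and 0 higher, where 4.97% and 5.77% of all genes were. They were Ppp3ca (-0.17 ± 0.05), Ppp1cb (-0.16 ± 0.04) and Ppp1cc (-0.12 ± 0.03), and with vehicle 0 of the 9 were called. Of 7 genes of 14-3-3 proteins 1 was higher in each, Ywhaq (0.12 ± 0.03 in both). Of 8 other AMPK-related kinases tested, 3 were higher with TAZ siRNA and 1 with control siRNA, with Prkaa2 in both (0.39 ± 0.08 and 0.37 ± 0.08). Other calls for TAZ siRNA with dDAVP were 1 per list. They were Prkar2b (-0.26 ± 0.05) and Cab39l (-0.20 ± 0.06), both lower, and the AMPK-related kinase Mark2, higher (0.10 ± 0.03). With vehicle Pkia was higher (0.25 ± 0.07) and the AMPK-related kinase Nuak1 lower (-0.27 ± 0.05), where 3.19% and 3.11% of all genes were. Neither Crebbp nor Ep300, the acetyltransferases that CREB recruits, was called in the 4 comparisons.

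Class IIa histone deacetylases are substrates of SIKs, and MEF2 factors are their partners. Mef2d rose by 0.54 ± 0.04 with TAZ siRNA and 0.59 ± 0.04 with control siRNA, while Hdac5 changed by -0.41 ± 0.05 and -0.53 ± 0.05 and Hdac7 by -0.19 ± 0.04 and -0.25 ± 0.04. In all, 1 gene was higher and 2 were lower of 6 tested with TAZ siRNA (6.38% and 4.41% of all genes), and 2 were higher and 2 lower with control siRNA (9.72% and 9.48%). Hdac7 was also higher with TAZ siRNA than with control siRNA, by 0.23 ± 0.04 with dDAVP and 0.17 ± 0.04 with vehicle. It was the only 1 of the 6 called in each, where 5.77% and 3.19% of all genes were higher. Of 14 other CREB/ATF bZIP genes tested, 3 were called with TAZ siRNA, all lower, and 2 were higher and 2 lower with control siRNA, to be set against the same shares of all genes. Atf3, a stress-induced factor, was lower with dDAVP in both (-0.54 ± 0.10 and -0.44 ± 0.10) and higher with TAZ siRNA in both treatments (0.54 ± 0.10 with dDAVP and 0.65 ± 0.10 with vehicle). For TAZ siRNA with dDAVP 1 of the 14 was higher and 1 lower, where 5.77% and 4.97% of all genes were. The lower one was Crebzf (-0.14 ± 0.04). With vehicle 2 of the 14 were higher and 0 lower, where 3.19% and 3.11% of all genes were. Of 11 CREB kinases other than protein kinase A, Rps6ka2 was called, lower with control siRNA (-0.57 ± 0.15). For dDAVP the list was not above the share of all genes called in either direction, which was 10.8% with TAZ siRNA and 19.2% with control siRNA. For TAZ siRNA against control siRNA with dDAVP, Rps6ka2 was higher (0.52 ± 0.15) and Camk1d lower (-0.41 ± 0.10), where 5.77% and 4.97% of all genes were. With vehicle 0 of the 11 were called.

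**Figure D5:**
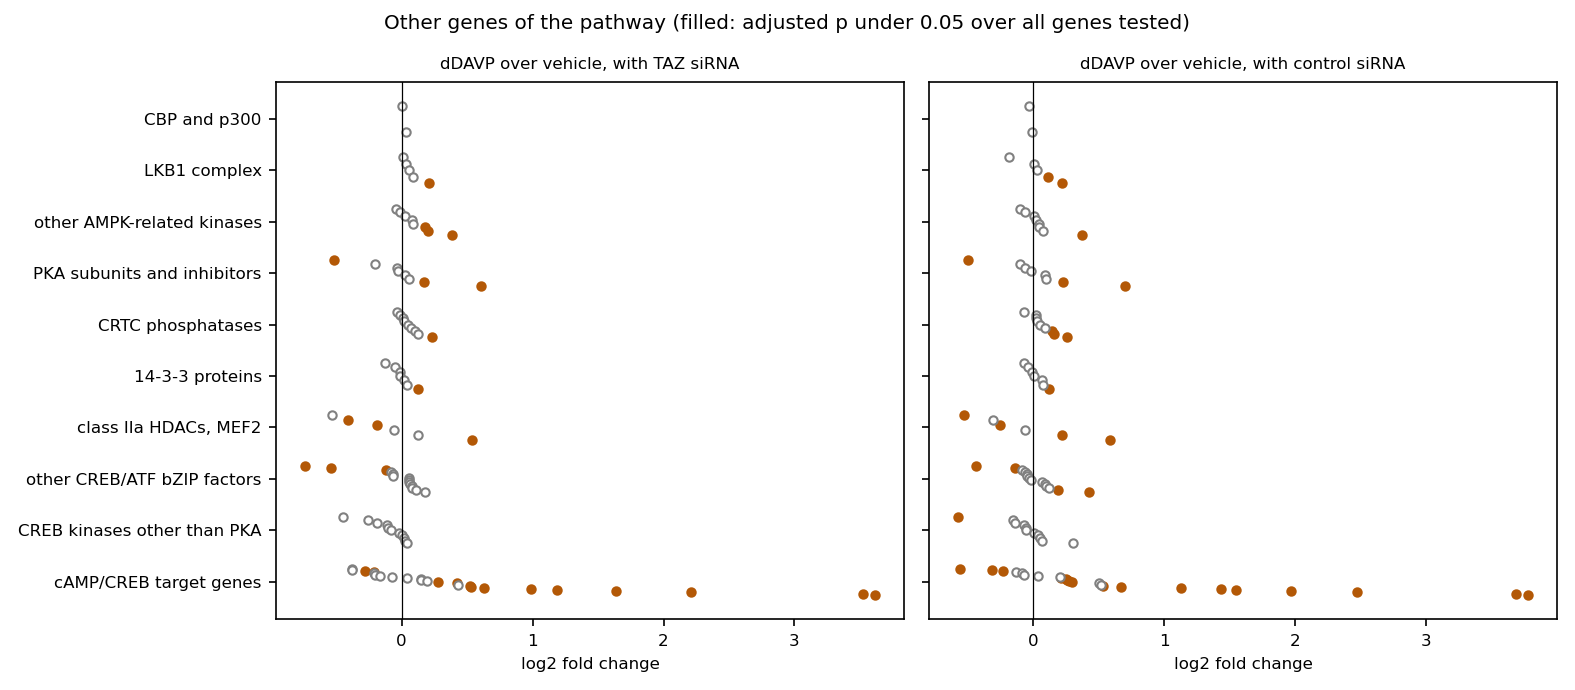
Log2 fold change of dDAVP over vehicle for each tested gene of the 10 pathway lists with TAZ siRNA (left) and control siRNA (right), with filled points for an adjusted p under 0.05 over all genes tested. The target genes reach 3.62 with TAZ siRNA and 3.78 with control siRNA, and the genes of the other lists lie between -0.74 and 0.71.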

How the data were processed

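Per the file headers, the authors deposited read counts and FPKM for genes and for transcripts. The counts are whole numbers and are treated as estimated counts, since the authors' tables divide the reads of a gene over its transcripts. The submitters' processing notes list Bowtie 0.12.2, mm8 and mm10 with no roles, and no counting tool is named in the sources read. The labels' protocols name both TruSeq RNA Sample Prep and TruSeq Stranded mRNA. Levels per length use the FPKM deposited for each gene, in place of a planned sum over transcripts. The 24 TPM columns stayed unused.

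Counts were fitted in R 4.3.3 with edgeR 4.0.16 (TMM, filterByExpr with a minimum count of 10, robust quasi-likelihood, 1 mean per group over all 12 libraries), adjusting by Benjamini-Hochberg over all features tested. Changes are log2 fold changes ± SE. Transcript usage was tested with diffSpliceDGE. Starts within 1000 bases were grouped, with strands from GENCODE M21. Alternatives were DESeq2 1.42.0, voom of limma 3.58.1, other scaling, no filter, fewer groups in the fit, a block and leaving out each library. Tested on simulated data for dDAVP with control siRNA, the gene test recovered 52.2% of 67 genes changed 1.2-fold and 97.0% of 67 changed 2-fold. These were among 15702 genes tested and were drawn from genes with a mean of at least 1 CPM. Replicate libraries differed beyond counting noise (chi-square per degree of freedom 4.09 to 12.6).

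The 9 genes and all lists were chosen with earlier results of these data known. Named are the 9 genes, Wwtr1, Aqp2, Crem transcripts, the 3 genes most correlated with each called member, and at most 3 called genes per list and comparison, by size of change. Also named are cell type markers, the targets Per1 and Fosl2 for TAZ siRNA with vehicle, and genes of the lists given as not called. The fit by start was added after seeing the data.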

Additional observations from a re-analysis of the deposited data

How the results depend on the processing

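The 10 calls for dDAVP, of Sik1, Sik2, Sik3, Crtc1 and Crem in each siRNA, held under all 12 alternatives of each, as did those of Crtc1 and Crtc2 for TAZ siRNA with dDAVP. For TAZ siRNA with vehicle DESeq2 called 2 of the 9 genes and edgeR 0, and leaving out 1 library gave 0 to 2. Genes with a difference of the dDAVP responses numbered 87 by DESeq2 and 12 without the low-count filter, against 5, and 3 to 16 when 1 library was left out. Genes called ranged over the left-out libraries from 1049 to 1625 for TAZ siRNA with dDAVP, 410 to 1435 with vehicle, 1118 to 1752 for dDAVP with TAZ siRNA and 2103 to 2685 with control siRNA. The difference in the internal-start share of Crem ranged from 0.0949 to 8.9 points.

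Deviations from the group mean correlated at -0.0825 to 0.225 between same-numbered libraries, which does not settle whether the numbers pair them. The highest value was for replicate 1 of TAZ siRNA with vehicle and control siRNA with dDAVP. With a replicate block the 9 genes kept 5, 5, 3, 0 and 0 calls. Transcripts called with the replicate block were 54 for dDAVP with TAZ siRNA, 157 with control siRNA, 0 for TAZ siRNA with dDAVP, 1 with vehicle and 0 for the difference of responses, against 130, 272, 46, 10 and 2. Usage calls were 37, 54, 38, 56 and 75, against 77, 131, 101, 103 and 214. Without the filter 20, 2 and 1 transcripts were called for TAZ siRNA with dDAVP, with vehicle and for the difference. Leaving out 1 library gave 50 to 98, 159 to 179, 6 to 24, 1 to 13 and 1 to 12 transcripts, and usage calls of 58 to 90, 64 to 105, 53 to 87, 71 to 103 and 149 to 184. The cause was not tested.

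Some estimates changed sign, none of them called. Those of single Crem transcripts were not all near 0, as for XM_030250315 for dDAVP with TAZ siRNA (0.25 ± 0.61). Crem for TAZ siRNA with dDAVP was 0.0137 by limma-voom and 0.000926 with the replicate block, and -0.127 to 0.104 when 1 library was left out. The other ranges over left-out libraries were, for TAZ siRNA with vehicle, -0.0566 to 0.111 for Crem, -0.000778 to 0.0315 for Crtc3, -0.00421 to 0.0758 for Sik1 and -0.000609 to 0.0221 for Sik3. For the difference of responses they were -0.0355 to 0.0197 for Atf1, -0.0225 to 0.0689 for Creb1, -0.136 to 0.0951 for Crem and -0.0457 to 0.0168 for Sik2. Atf1 for dDAVP with control siRNA was -0.0421 to 0.00302. NM_001311066 was -0.922 to 0.481 for TAZ siRNA with vehicle and -0.952 to 0.451 for the difference. XM_030250315 was -0.485 to 0.503 for TAZ siRNA with dDAVP and -0.475 to 0.59 for dDAVP with TAZ siRNA. The 5′-most Crem start was -0.249 to 0.235 for TAZ siRNA with vehicle and -0.0905 to 0.357 for dDAVP with control siRNA, and the internal start -0.102 to 0.472 for TAZ siRNA with vehicle.

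Without TAZ siRNA vehicle replicate 1, Creb1 and Crtc1 were called for TAZ siRNA with vehicle (edgeR, adjusted p = 0.0287 and 0.0304), and without control siRNA vehicle replicate 3 Creb1 was (adjusted p = 0.0479). Depth limits Crem most, at 162 to 427 counts a library.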
